A study of Mus musculus with 8 samples.

Results

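The diacylglycerol kinases described here are the 8 genes Dgka, Dgkb, Dgkd, Dgke, Dgkg, Dgkh, Dgki and Dgkz, of 17362 genes in the deposited table. The family was chosen on the level of Dgkg under forskolin in beta cells, so the FSK values of Dgkg are given as a description and support nothing by themselves. The study profiled nuclei of cultured, hand-picked mouse islets by combinatorial-barcoding single-nucleus RNA-seq, asking how a phosphorylation site in the Mediator subunit Med14 shapes the response to GLP-1 receptor agonists. Islets came from wild-type mice (WT) and from whole-body knock-in mice carrying Med14 S983A (mutant), a serine-to-alanine change that removes a protein kinase A site; the mutant mice are listed as C57BL/6J, and age and number of animals were not given in the sources used here. Each genotype was left untreated (CON), exposed to the adenylate cyclase activator forskolin (FSK, 16 h, islet dose not given) or exposed to Exendin-4, a long-lived peptide agonist of the GLP-1 receptor (Ex-4, 10 nM, 16 h). The 8 sequenced sublibraries each held all 6 conditions and were pooled by the authors into 54 columns, 1 for each of 6 conditions in each of 9 cell types.

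Levels are given as counts per 10,000 counts of a column (CP10K), with the 95% exact Poisson interval in brackets where it is printed. With 1 pool per condition and cell type there were no replicates, so no test between conditions was possible, and every interval covers counting error only. Condition cannot be told apart from islet preparation or from the barcoding wells that marked it. Column totals ran from 1915006 to 3094377 counts in beta cells, from 269394 to 810127 in alpha cells and from 362410 to 631433 in delta cells, but only from 4044 to 58294 in the columns labelled neurons and from 1522 to 19291 in ductal cells, and ductal cells are left out below. The summed markers of beta, alpha, delta, PP, endothelial and muscle cells were higher in each column of their own type than in any other. Only 4 of 6 muscle markers were in the table, and 1 to 3 of these were at 0 in each muscle column. The muscle sum therefore rests on few genes. The markers of neurons reached 36.7 CP10K in delta cells against 4.93 to 23.3 in the columns labelled neurons, so these markers did not set the label apart. The 4 macrophage markers in the table were at 0 in every cell type under Ex-4 in both genotypes, and 5048 genes in WT and 5918 in the mutant shared that pattern, so a 0 there sets no limit.

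Diacylglycerol kinases phosphorylate diacylglycerol to phosphatidic acid. They thereby end signalling by diacylglycerol, which activates protein kinase C, protein kinase D and RasGRP exchange factors and primes secretory granules through Munc13 proteins, and they feed the resynthesis of phosphoinositides. In beta cells diacylglycerol made by phospholipase C adds to calcium in driving insulin release. The mammalian isoforms fall into classes. The calcium-binding type I enzymes are encoded by Dgka, Dgkb and Dgkg. The type II enzymes, with a pleckstrin homology domain, are encoded by Dgkd, Dgkh and Dgkk. Dgke encodes the type III enzyme, selective for arachidonoyl diacylglycerol, Dgkz and Dgki the type IV enzymes with ankyrin repeats, and Dgkq the type V enzyme.

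Dgkg (ENSMUSG00000022861) lies on the minus strand of GRCm39 chromosome 16, from 22283359 to 22476155, a gene body of 193 kb with 25 exons in its canonical transcript. Because FSK acts through cAMP and the CREB family, the start sites were searched for the cAMP response element (CRE, TGACGTCA, a palindrome) and for its partial form (TGACG on either strand), which overlaps every complete CRE. Windows of 250 bases before to 50 bases after each of the 4 annotated protein-coding start sites of Dgkg held neither. The paper places cAMP-inducible expression at CREB-bound enhancers away from promoters. Such distal sites, within the gene body or outside it, were not searched, so the absence says nothing about them. The complete element was in 2.45% and the partial form in 22.6% of 21751 windows of the same length around canonical start sites. The 250 bases before the outermost annotated start of Dgkg are shown because this is the member with the highest FSK level, and those of Dgki because it holds the partial form and has the lowest level per gene length of the 8 members in beta cells. Capitals mark the partial CRE. The stretches are chr16:22476156-22476405 and chr6:37277120-37277369 (GRCm39, both minus strand, written 5′ to 3′), and neither window holds an annotated exon.
Dgkg: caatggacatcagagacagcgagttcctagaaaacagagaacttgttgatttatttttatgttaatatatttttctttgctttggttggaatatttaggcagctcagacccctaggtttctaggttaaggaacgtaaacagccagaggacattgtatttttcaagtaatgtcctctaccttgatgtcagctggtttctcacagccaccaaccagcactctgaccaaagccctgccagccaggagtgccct
Dgki: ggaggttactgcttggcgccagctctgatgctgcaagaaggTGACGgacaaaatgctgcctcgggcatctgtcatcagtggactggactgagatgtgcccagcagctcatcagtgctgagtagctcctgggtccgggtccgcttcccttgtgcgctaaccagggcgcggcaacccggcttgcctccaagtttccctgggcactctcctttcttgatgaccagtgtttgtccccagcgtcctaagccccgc

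Of the other members, Dgke and Dgkz held 1 partial CRE each in the window of the canonical start, and Dgka, Dgkb, Dgkd and Dgkh held none. The match is a description of letters and not of binding. The gene bodies differed widely in length, from 29.5 kb for Dgka (chromosome 10), 31.7 kb for Dgke (chromosome 11) and 43.5 kb for Dgkz (chromosome 2) to 102 kb for Dgkd (chromosome 1), 174 kb for Dgkh (chromosome 14), 456 kb for Dgki (chromosome 6) and 817 kb for Dgkb (chromosome 12). Length matters here because nuclear RNA holds introns, so the order of levels between members is given per 100 kb of gene body.

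Dgkg was at 1.96 CP10K (1.80 to 2.12) in untreated WT beta cells and at 13.0 (12.6 to 13.4) after FSK. In the mutant the levels were 1.62 (1.44 to 1.81) untreated and 11.9 (11.5 to 12.3) after FSK. Ex-4 gave 1.74 (1.59 to 1.89) in WT and 1.61 (1.43 to 1.80) in the mutant. The FSK columns of both genotypes thus stood apart from the 4 others, which lay close together. The ratio of FSK to CON was 6.65 (6.10 to 7.27) in WT and 7.36 (6.55 to 8.31) in the mutant, and the mutant ratio divided by the WT ratio was 1.11 (0.955 to 1.28). On the log2(CP10K + 1) scale used for all differences below, the difference was 2.25 in WT, the highest of the 10093 beta cell genes kept by a filter on mean level, and 2.30 in the mutant, the second highest.

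The other members spanned a much narrower range in the same columns. Dgkh was next, at 1.98 CP10K in WT CON, 2.80 in WT FSK, 1.35 in WT Ex-4, 1.18 in mutant CON, 2.71 in mutant FSK and 1.17 in mutant Ex-4. Its FSK level was nearly the same in the genotypes, while its untreated level was lower in the mutant. The ratio of FSK to CON was therefore 1.41 (1.27 to 1.57) in WT and 2.30 (1.97 to 2.69) in the mutant, where Dgkh passed the 1.5-fold call with a difference of 0.77. That call was lost when the trend of the difference with gene length was removed, which left 0.57 against a threshold of 0.585. The ratio of the mutant to the WT response was 1.62 (1.35 to 1.96) for Dgkh.

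Dgkd, the other type II member in this range, did not pass the call in any comparison of beta cells. Its level was 2.43 CP10K in WT CON, 2.37 in WT FSK, 1.99 in WT Ex-4, 1.68 in mutant CON, 2.30 in mutant FSK and 1.71 in mutant Ex-4. As for Dgkh, the FSK levels lay together and the lowest values were those of mutant CON and mutant Ex-4. The FSK ratio was 0.972 (0.876 to 1.08) in WT and 1.37 (1.19 to 1.58) in the mutant.

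Dgka, a type I member like Dgkg, had the opposite order of conditions. After FSK it was at 0.0808 CP10K in WT and 0.0912 in the mutant, from 25 and 21 counts, against 0.179 and 0.338 in the untreated columns. Ex-4 gave 0.231 in WT and 0.219 in the mutant, so both FSK columns were the lowest. The ratio of FSK to CON was 0.451 (0.269 to 0.737) in WT and 0.270 (0.157 to 0.448) in the mutant. The log2 differences of -0.13 and -0.29 stayed short of the call, since the added 1 compresses changes of genes at such a level. With a pseudocount of 0.1 they were -0.63 and -1.20, against medians of -0.215 and -0.094 over all kept genes. With the trend on gene length removed they were -0.060 and -0.25. Dgkq, the type V gene, is in the table but was not among the chosen members, and after FSK it was at 0.0485 CP10K in WT and 0.0912 in the mutant, against 0.139 and 0.203 untreated, with ratios of 0.348 (0.179 to 0.640) and 0.450 (0.252 to 0.784).

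The third type I member, Dgkb, ranged only from 1.09 CP10K in mutant CON to 1.46 in WT FSK in beta cells, and its FSK ratio intervals held 1 in both genotypes. Dgke ranged from 0.391 in mutant FSK to 0.694 in WT Ex-4, with FSK ratios of 0.787 (0.633 to 0.977) in WT and 0.752 (0.560 to 1.01) in the mutant. Dgkz ranged from 0.687 in WT CON to 1.22 in mutant FSK. Its untreated level was higher in the mutant, with a ratio of 1.58 (1.30 to 1.92), and its FSK ratio was 1.37 (1.15 to 1.65) in WT and 1.12 (0.936 to 1.35) in the mutant. Dgki had 2 to 5 counts per beta cell column and did not pass the filter. Dgkk had 1 count over all 6 beta cell columns.

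**Figure D1:**
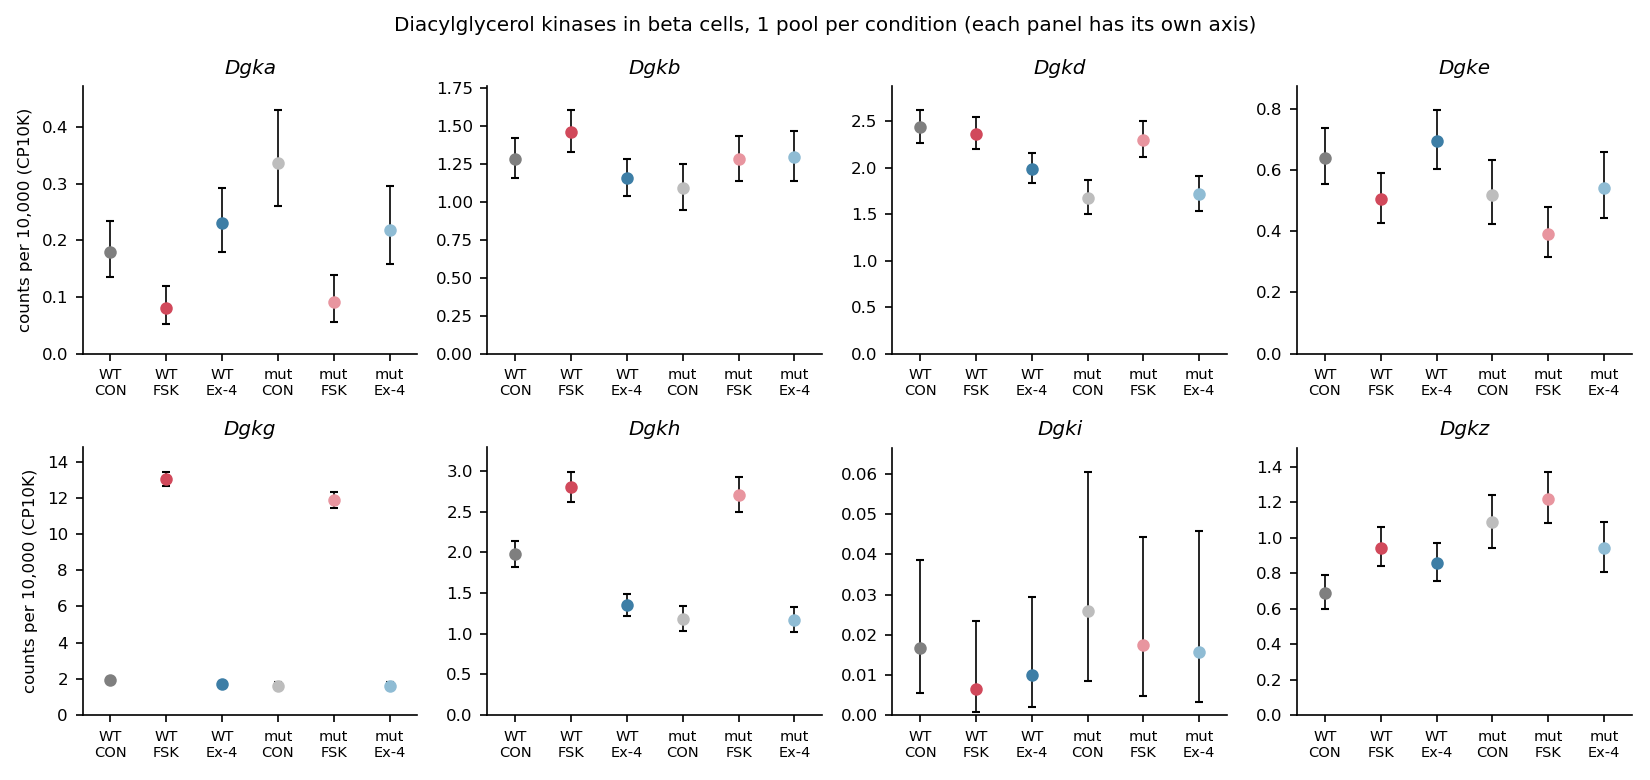
Level of each diacylglycerol kinase in beta cells (CP10K, separate vertical axis for each gene) in WT and mutant (mut) islets under CON, FSK and Ex-4, with 95% exact Poisson intervals of 1 pool per point. Dgkg stands at 13.0 and 11.9 under FSK and at 1.61 to 1.96 otherwise, Dgkh is highest under FSK, and Dgka is lowest under FSK.

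Per 100 kb of gene body, the order of the members in beta cells changed with FSK. In WT CON Dgkd led at 2.39 CP10K per 100 kb, ahead of Dgke at 2.02, Dgkz at 1.58 and Dgkh at 1.13, with Dgkg at 1.02 after these 4. In WT FSK Dgkg led at 6.76, ahead of Dgkd at 2.32 and Dgkz at 2.17. In mutant CON Dgkz led at 2.49 and Dgkg was again behind 4 members, at 0.838, and in mutant FSK Dgkg led at 6.17 ahead of Dgkz at 2.80. Dgkg made up 11.4% of the family's summed level per length in WT CON, 45.4% in WT FSK, 10.3% in WT Ex-4, 9.77% in mutant CON, 42.6% in mutant FSK and 10.5% in mutant Ex-4. The 7 members without Dgkg summed to 7.22 CP10K in WT CON and 8.16 in WT FSK, and to 5.92 and 8.01 in the mutant.

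**Figure D2:**
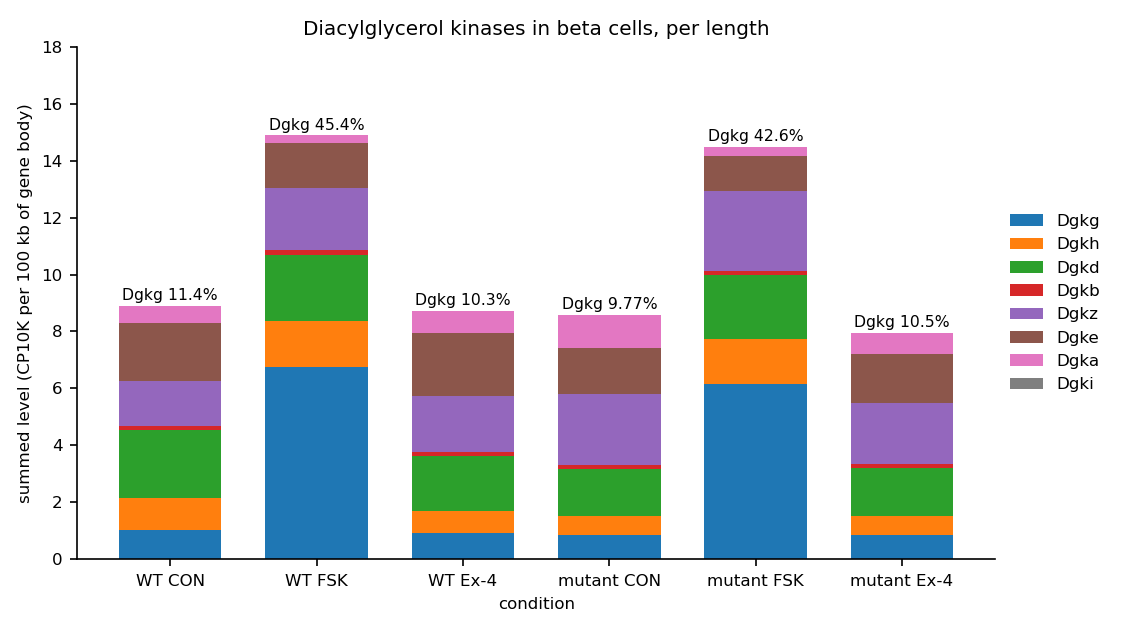
Summed level of the 8 diacylglycerol kinases in beta cells, in CP10K per 100 kb of gene body, stacked by gene for each of the 6 conditions, with the share of Dgkg above each bar. Dgkg makes up 45.4% and 42.6% of the sum in the FSK bars and 9.77% to 11.4% in the 4 others.

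The count of members called can be read only against the genes called in all. At 1.5-fold in either direction, 2.24% of the 10093 kept genes were called for FSK against CON in WT beta cells and 7.83% in the mutant, 3.12% for Ex-4 against CON in WT and 0.0495% in the mutant, and 5.34% for mutant CON against WT CON. Of the 7 members kept in beta cells, the call took Dgkg for FSK in WT, Dgkg and Dgkh for FSK in the mutant, and none for Ex-4 in either genotype or for the genotype comparison. Because the members were chosen on the FSK values of Dgkg, nothing is read from those counts. The median difference of the 7 members was 0.11 for FSK in WT, against -0.06 over all kept genes, and 0.13 against -0.02 in the mutant. For Ex-4 it was -0.08 against 0.03 in WT and -0.0038 against -0.0085 in the mutant, and for the genotypes it was -0.13 against 0.00010. The comparisons within a genotype share its CON column. The genotype comparison uses both CON columns, so it shares a column with every treatment comparison. A low mutant CON level therefore enters both the genotype ratio and the FSK ratio of the mutant. For FSK in WT beta cells, the counting interval of the ratio lay above 1 for Dgkg, Dgkh and Dgkz and below 1 for Dgka and Dgke. Of all kept genes, 13.6% lay above and 39.3% below. For FSK in the mutant Dgkd, Dgkg and Dgkh lay above and Dgka below, against 25.9% and 32.2%. For Ex-4 in WT Dgkz lay above and Dgkd and Dgkh below, against 33.5% and 22%. In the mutant only Dgka lay below, against 6.71%. For the genotypes Dgka and Dgkz lay above and Dgkd, Dgkg and Dgkh below, against 27.2% and 28.2%. The family was chosen on Dgkg under FSK, so nothing is read from the FSK counts here either.

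For Ex-4 in WT beta cells, Dgkg had a ratio of 0.887 (0.787 to 1.00) and a difference of -0.11. Dgkh had the largest difference of the members, -0.34, with a ratio of 0.683 (0.601 to 0.777), followed by Dgkd at -0.20 with 0.816 (0.731 to 0.911). With the length trend removed these differences were -0.18 and -0.12. The difference of Dgkb then went from -0.08 to 0.36 and was the largest of the kept members, so the ranking was not fixed. Dgkz was at a ratio of 1.25 (1.04 to 1.51). In the mutant the Ex-4 and CON columns of Dgkg held 308 and 311 counts, a ratio of 0.996 (0.848 to 1.17), and those of Dgkh 224 and 227 counts, a ratio of 0.992 (0.821 to 1.20).

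Without treatment, Dgkg was lower in mutant than in WT beta cells by a ratio of 0.825 (0.717 to 0.948), Dgkd by 0.689 (0.603 to 0.787) and Dgkh by 0.596 (0.509 to 0.695). Dgka was higher, at 1.88 (1.29 to 2.75). None of these differences, from -0.45 for Dgkh to 0.31 for Dgkz, reached the call. With the length trend removed, the difference of Dgkg went from -0.18 to 0.08 for the genotypes and from -0.11 to 0.07 for Ex-4 in WT, so the direction of neither was fixed. The genotype difference of Dgkb also changed sign, from -0.13 to 0.41.

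**Figure D3:**
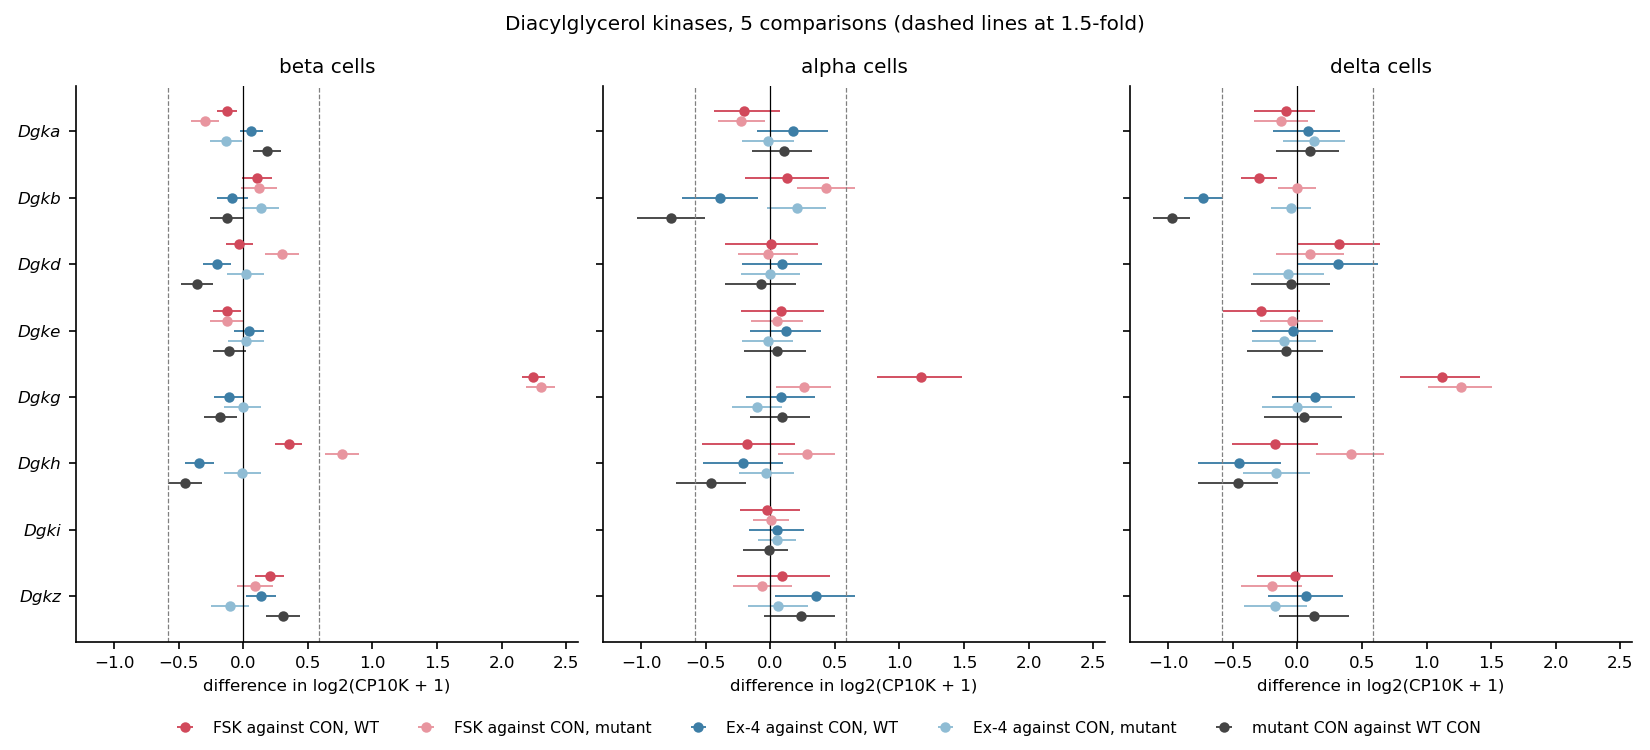
Difference in log2(CP10K + 1) of each member kept by the filter, for the 5 comparisons in beta, alpha and delta cells, with an interval from the counting errors of both columns and dashed lines at 1.5-fold. Dgkg under FSK lies at 2.25 and 2.30 in beta cells and beyond the line in delta cells and WT alpha cells, and Dgkb lies below the line for the genotypes in alpha and delta cells.

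Outside beta cells, Dgkg was lower in every condition of alpha and delta cells. In delta cells it was at 0.524 CP10K in WT CON, 2.32 in WT FSK, 0.672 in WT Ex-4, 0.583 in mutant CON, 2.80 in mutant FSK and 0.579 in mutant Ex-4. As in beta cells, only the FSK columns stood apart, with ratios to CON of 4.42 (2.69 to 7.64) in WT and 4.81 (3.30 to 7.21) in the mutant. In alpha cells it was at 0.238 in WT CON, 1.78 in WT FSK, 0.310 in WT Ex-4, 0.321 in mutant CON, 0.585 in mutant FSK and 0.227 in mutant Ex-4. The ratio to CON in alpha cells was 7.47 (3.73 to 16.6) in WT, from 48 and 10 counts, and 1.82 (1.104 to 3.07) in the mutant, from 46 and 26 counts. The mutant ratio divided by the WT ratio was 0.244 (0.0953 to 0.582) in alpha cells and 1.09 (0.560 to 2.07) in delta cells. The FSK ratio in alpha cells therefore differed between the genotypes by more than counting error, while the ratio interval of Dgkg for mutant CON against WT CON held 1. Without replicates no further test was possible.

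Beta cell RNA was present in these columns. The 8 beta cell markers (Ins1, Ins2, Iapp, Slc2a2, G6pc2, Mafa, Nkx6-1 and Glp1r) summed to 9.77% of their beta cell level in WT FSK alpha cells, with single markers from 7.37% to 18.9%, and Dgkg stood at 13.7% (10.1 to 18.1) of its own beta cell level, with 2 markers as high or higher. In mutant FSK alpha cells the markers summed to 6.89%, from 3.91% to 15.7%, and Dgkg stood at 4.92% (3.60 to 6.56), with 7 markers as high or higher. In the other alpha cell columns Dgkg stood at 12.2% (5.84 to 22.4) in WT CON, 17.9% (9.76 to 30.0) in WT Ex-4, 19.9% (13.0 to 29.1) in mutant CON and 14.1% (8.36 to 22.3) in mutant Ex-4, against marker sums of 9.34%, 14.8%, 11.9% and 12.0%. In mutant CON none of the 8 markers was as high as Dgkg, and from mutant CON to mutant FSK the marker sum went from 11.9% to 6.89%. In delta cells the markers summed to 10.7% in WT FSK and 14.7% in mutant FSK, and Dgkg stood at 17.8% (14.4 to 21.6) and 23.6% (20.2 to 27.3), with 1 marker as high or higher in each. In untreated and Ex-4 columns Dgkg stood at 26.8% to 38.7% of its beta cell level in delta cells, against marker sums of 15.8% to 20.9%. The part of beta cell RNA in the Dgkg levels of alpha and delta cells was not tested.

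In the smaller columns Dgkg rested on few counts. PP cells had 0 counts in WT CON, where 3 counts would give 0.482 CP10K, and 7 counts, or 1.48 CP10K, in WT FSK. Endothelial cells had 23 counts in mutant FSK, at 1.59 CP10K (1.01 to 2.39), against 3 in mutant CON, and there Dgkg stood at 13.4% of its beta cell level against 13.3% for the marker sum. In muscle cells Dgkg lay between 0.808 and 2.55 CP10K with no FSK column apart from the rest, and in macrophages between 0 and 2.70. Over all 6 conditions Dgkg was highest in beta cells at 5.58 CP10K, ahead of muscle at 1.66, macrophages at 1.48, delta cells at 1.31, neurons at 1.28, endothelial cells at 0.604, PP cells at 0.472 and alpha cells at 0.459. The ranges over conditions of neighbours in that order overlapped throughout. The beta cell value rests on the FSK columns that chose the family. Outside FSK beta cells were at 1.61 to 1.96, and muscle was at 2.55 in WT Ex-4 and 1.63 in mutant CON, from 9 and 10 counts, which is 147% and 101% of the beta cell levels there.

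**Figure D4:**
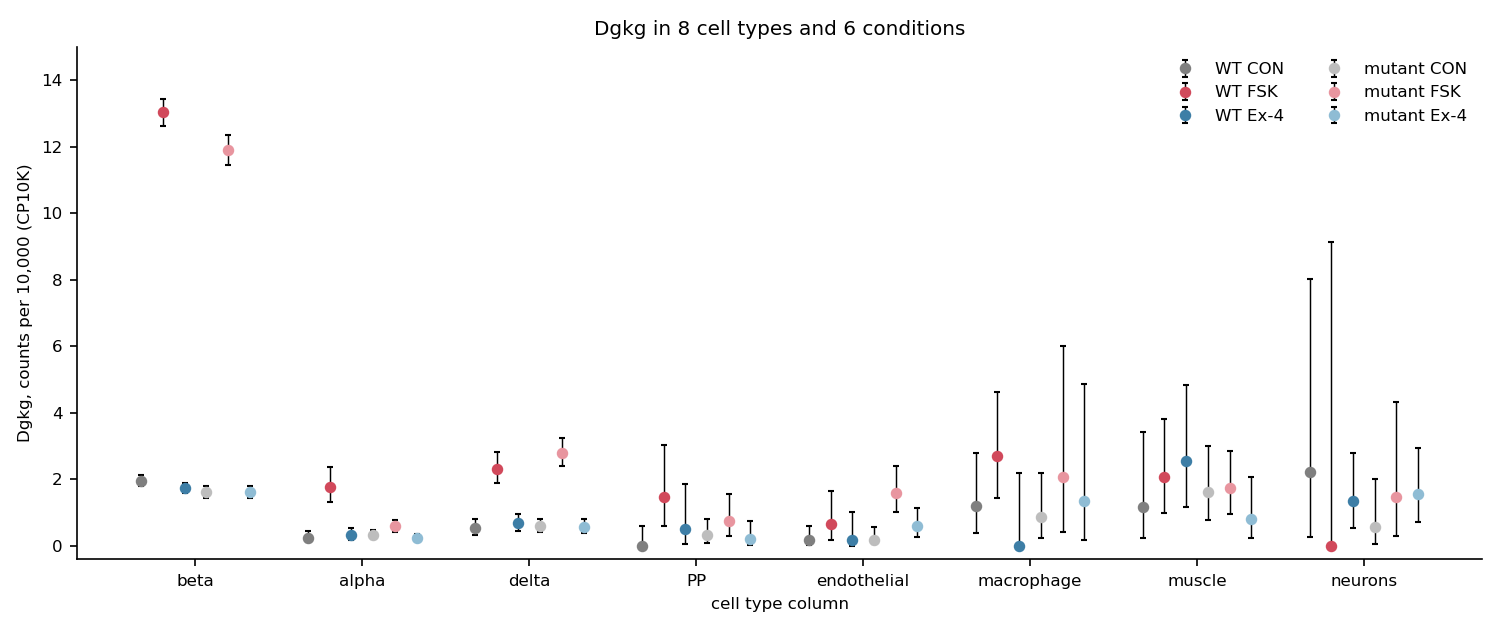
Dgkg level (CP10K) in 8 cell type columns, 6 conditions each, with 95% exact Poisson intervals of 1 pool per point. The FSK points of beta cells, at 13.0 and 11.9, lie above all others, those of delta cells reach 2.32 and 2.80, and the intervals of macrophages, muscle and neurons are wide.

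Dgkb, Dgkz, Dgkh and Dgki were highest in cell types other than beta cells. Dgkb was highest in delta cells, at 13.0 CP10K over all conditions against 2.66 in PP cells, 1.51 in alpha cells and 1.27 in beta cells, and its lowest delta cell column, at 10.1, lay above its highest PP cell column, at 4.85. Dgkz was highest in macrophages at 10.9 CP10K, with a lowest column of 5.48 against a highest of 4.14 in PP cells, the next in order. Dgkh was highest in endothelial cells at 7.52, ahead of muscle at 4.002 and beta cells at 1.93, with ranges that overlapped between the leading pair. Dgki was highest in neurons at 1.12 from 20 counts, against 0.0144 to 0.109 elsewhere, although the summed neuronal markers there, at most 23.3 CP10K, were below the highest delta cell column. Dgkd, Dgke and Dgka had overlapping ranges between all neighbours in order. Their levels ran from 0.944 to 2.501 for Dgkd, 0.0558 to 0.558 for Dgke and 0.181 to 0.515 for Dgka. Dgke was highest in beta cells, and its lowest level, in neurons, rests on 1 count.

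Per 100 kb of gene body, over all conditions, Dgkg led the family in beta cells alone, at 2.89 CP10K per 100 kb ahead of Dgkz at 2.15. Dgkz led in alpha cells at 2.15, delta cells at 5.95, PP cells at 6.36, macrophages at 25.0 and neurons at 1.54. Dgkh led in endothelial cells at 4.31 and muscle at 2.30. The lead of Dgkg in beta cells came from its FSK columns, as shown above.

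**Figure D5:**
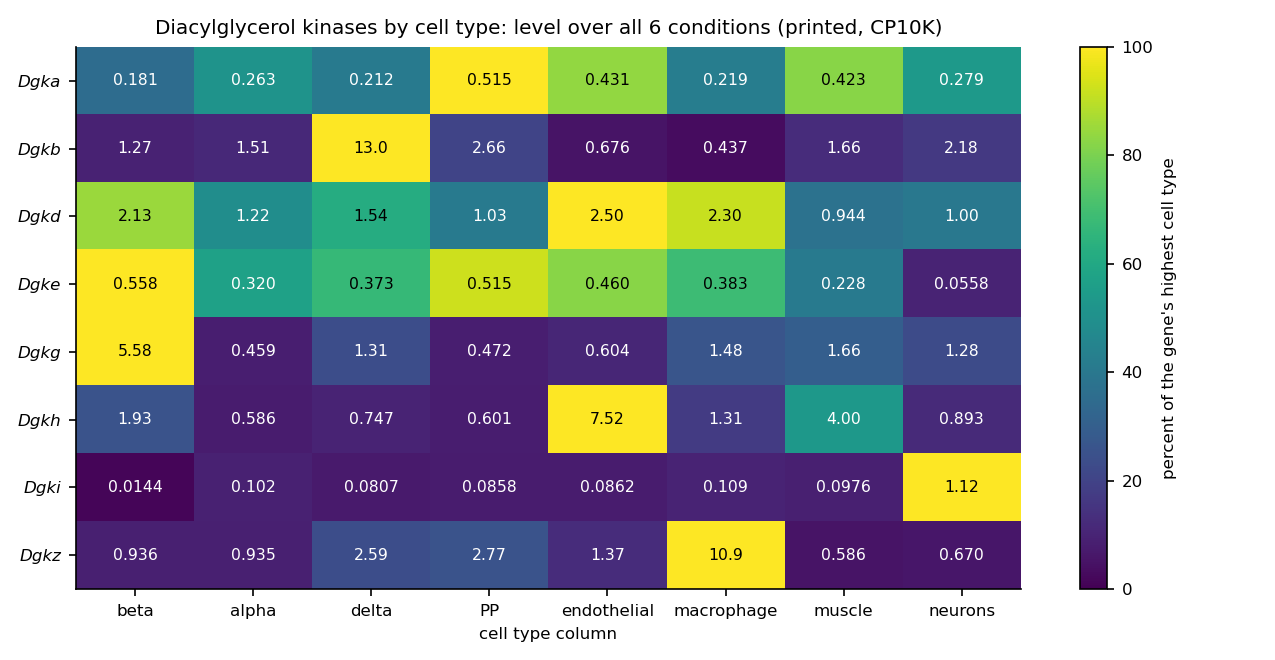
Level of the 8 diacylglycerol kinases in 8 cell types over all 6 conditions, printed in CP10K and coloured as a percentage of the gene's own highest cell type. Dgkg is highest in beta cells (5.58), a value that rests on the FSK columns, Dgkb in delta cells (13.0), Dgkh in endothelial cells (7.52), Dgkz in macrophages (10.9) and Dgki in neurons (1.12).

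In delta cells Dgkb was the member called besides Dgkg. In WT it was at 21.5 CP10K (20.0 to 23.1) untreated, 17.4 (16.1 to 18.6) after FSK and 12.6 (11.6 to 13.7) after Ex-4. In the mutant the levels were 10.5 (9.64 to 11.3) untreated, 10.5 (9.67 to 11.3) after FSK and 10.1 (9.24 to 10.9) after Ex-4. The 3 mutant columns lay together below the 3 WT columns. Dgkb passed the call for Ex-4 against CON in WT, with a ratio of 0.585 (0.524 to 0.654), and for mutant CON against WT CON, with 0.486 (0.436 to 0.542). With the length trend removed, both calls were lost, and the differences went from -0.73 to -0.23 and from -0.97 to -0.40. The summed delta cell markers moved too, with 18.05 CP10K untreated, 29.1 after FSK and 11.5 after Ex-4 in WT, and 9.31, 21.8 and 9.72 in the same order in the mutant, and their part in the Dgkb values was not tested. Called genes made up 4.79% of the 9256 genes kept in delta cells for FSK in WT, 7.91% for FSK in the mutant, 5.06% for Ex-4 in WT, 0.0432% for Ex-4 in the mutant and 7.05% for the genotypes. Of the 7 members kept there, 1 was called in each comparison but Ex-4 in the mutant: Dgkg for both FSK comparisons and Dgkb for the other 2.

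Dgkb in alpha cells was at a lower level and in another order of conditions. It was at 2.29 CP10K in WT CON, 2.60 in WT FSK, 1.51 in WT Ex-4, 0.926 in mutant CON, 1.60 in mutant FSK and 1.22 in mutant Ex-4. The genotype ratio without treatment was 0.404 (0.295 to 0.553), a difference of -0.77 that passed the call and fell to -0.28 with the length trend removed. All 8 members were kept in alpha cells, and the call took Dgkg for FSK in WT, where 2.51% of 9487 genes were called, and Dgkb for the genotypes, where 7.38% were. No member was called for FSK in the mutant (4.02% of genes), Ex-4 in WT (5.72%) or Ex-4 in the mutant (0.0422%). The FSK ratio of Dgkb in alpha cells was 1.13 (0.822 to 1.56) in WT and 1.73 (1.29 to 2.34) in the mutant. In PP cells Dgkb was also higher with FSK in both genotypes, at 4.85 against 0.964 CP10K in WT (ratio 5.03, 1.99 to 15.1) and 4.77 against 1.88 in the mutant (2.54, 1.51 to 4.36), from 6 to 44 counts. The summed delta cell markers of those 4 columns were 0.633 against 0.161 CP10K and 1.19 against 0.783, with 2 to 5 of 6 markers at 0, and their part was not tested. Dgkz in PP cells went the other way, from 3.21 to 0.843 CP10K in WT and from 3.44 to 1.52 in the mutant, from 4 to 44 counts, with 4 in WT FSK. No filter, call or share of called genes was computed for PP cells, so these values are a description only.

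Dgkh was low in the untreated mutant columns of delta and endothelial cells as well. In delta cells it was at 1.13 CP10K in WT CON, 0.889 in WT FSK, 0.556 in WT Ex-4, 0.547 in mutant CON, 1.06 in mutant FSK and 0.380 in mutant Ex-4. In endothelial cells, where it was highest, it was at 8.41, 10.9 and 9.90 in WT CON, FSK and Ex-4 and at 5.40, 10.7 and 3.75 in the mutant. Mutant CON and mutant Ex-4 were the lowest columns in both, and FSK levels of the genotypes lay within each other's intervals. In delta cells, however, WT Ex-4, from 24 counts, lay almost at the level of mutant CON, from 31 counts, so the mutant columns were not set apart there. The summed endothelial markers were at 112, 82.8 and 103 CP10K in WT CON, FSK and Ex-4 endothelial cells. In the mutant they were at 76.7, 110 and 56.9, so mutant CON and mutant Ex-4 were lowest for the markers too. The summed delta cell markers were likewise lowest in mutant CON and mutant Ex-4 delta cells, at 9.31 and 9.72 CP10K. WT Ex-4 was next at 11.5, against 18.05 in WT CON. The part of the markers in the Dgkh values of endothelial and delta cells was not tested. Unlike in beta cells, WT FSK was not above WT CON in delta cells. The ratio of the mutant to the WT response to FSK was 2.47 (1.30 to 4.76) in delta cells and 2.31 (1.12 to 4.94) in alpha cells.

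The rest of the pathway was read from 4 lists. Of 74 listed genes 69 were in the table and 50 were kept in beta cells. FSK in WT called 3 of the 50 higher and none lower, FSK in the mutant 9 higher and none lower, Ex-4 in WT none higher and 5 lower, Ex-4 in the mutant none, and mutant CON against WT CON none higher and 9 lower. Of all 10093 genes kept in beta cells, FSK called 153 higher and 73 lower in WT and 517 and 273 in the mutant. Ex-4 called 95 higher and 220 lower in WT and 4 and 1 in the mutant. Between the untreated genotypes 149 were higher and 390 lower. No value with the length trend removed is given for the listed genes.

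Of the 10 phospholipase C genes kept, which make or relate to the makers of diacylglycerol, 1 was called higher for FSK in WT and 5 in the mutant, with a median difference of 0.10 against -0.06 over all genes in WT and 0.58 against -0.02 in the mutant. Plcl1, whose product is a phospholipase C-like protein without catalytic activity, was at 0.106 CP10K in WT CON and 0.821 in WT FSK, and at 0.0623 and 0.686 in the mutant. Plcb1, a receptor-coupled enzyme, was at 7.48 in WT CON, 7.62 in WT FSK, 3.89 in WT Ex-4, 3.52 in mutant CON, 7.26 in mutant FSK and 3.27 in mutant Ex-4. Plch1, Plcxd2 and Plcxd3 were also called in the mutant, with FSK ratios of 2.72 (2.33 to 3.20), 3.05 (2.50 to 3.76) and 2.94 (2.64 to 3.28), and these and Plcb1 were called lower for mutant CON against WT CON. Ex-4 in WT called Plcxd3 and Plcb1 lower.

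Of the 11 diacylglycerol effector genes kept, the protein kinase C gene Prkcb was called higher for FSK in both genotypes. Its level was 9.38 CP10K in WT CON, 16.6 in WT FSK, 6.36 in WT Ex-4, 5.44 in mutant CON, 17.2 in mutant FSK and 5.54 in mutant Ex-4. The protein kinase D gene Prkd1 was called for FSK only in the mutant, with a ratio of 4.54 (3.85 to 5.38) against 1.24 (1.14 to 1.34) in WT, and its untreated level was 3.43 in WT and 0.878 in the mutant. Prkd1 and Prkca were called lower for Ex-4 in WT, with ratios of 0.384 (0.341 to 0.432) and 0.589 (0.562 to 0.618), and these and Prkcb were called lower for the genotypes.

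Of the 20 genes of phosphatidic acid and phosphoinositide resynthesis, Pld1, a phospholipase that makes phosphatidic acid by another route, was called higher for FSK in WT, from 0.282 to 1.02 CP10K, and went from 0.239 to 0.838 in the mutant, just short of the call. Pip5k1b, a phosphatidylinositol phosphate kinase gene, was at 9.61 in WT CON, 11.5 in WT FSK, 5.52 in WT Ex-4, 4.45 in mutant CON, 10.9 in mutant FSK and 4.58 in mutant Ex-4, and it was called for FSK in the mutant and lower both in WT Ex-4 and between the untreated genotypes. Of the 9 other genes of diacylglycerol metabolism only Sgms1, a sphingomyelin synthase gene, was called, for FSK in the mutant (1.58 untreated, 4.003 CP10K after FSK) and lower for the genotypes. Like Dgkh, Plcb1, Prkd1, Pip5k1b and Sgms1 had similar FSK levels in both genotypes and lower untreated levels in the mutant. These list genes were named because they were called, and their values with the length trend removed are not given. For Dgkh in beta cells, removal of that trend took the genotype difference from -0.45 to -0.22. The part of gene length in this pattern was not tested.

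The genes whose levels were most like that of Dgkg were sought over the 18 columns of beta, alpha and delta cells, among 8560 genes kept in all 3. Pearson's r of log2(CP10K + 1) was 0.96 for Slc23a2, a vitamin C transporter gene, 0.96 for the sialyltransferase gene St8sia5, 0.96 for Fmn1, 0.95 for Magt1 and 0.95 for the IGF1 receptor gene Igf1r. These columns share islets, depth and the FSK treatment, so the values only describe likeness. In WT beta cells Slc23a2 was at 1.61 CP10K untreated and 6.38 after FSK, and Igf1r at 12.6 and 48.4. The mutant levels were 0.9297 and 5.93 for Slc23a2 and 7.80 and 49.7 for Igf1r. Within the family r was 0.86 for Dgkh and 0.74 for Dgkd, and it was -0.67 for Dgka.

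All 8 members overlap other annotated genes, and the strandedness of counting was not given in the sources used here. The overlapping genes on the opposite strand of Dgkg that are in the table, 9230117E06Rik, Gm49565 and Gm15651, had at most 19 counts per beta cell column. Gm15651 was at 19 counts in WT CON and 2 in WT FSK, and 9230117E06Rik and Gm49565 had at most 2 counts in any beta cell column. Overlap was larger for other members. In WT CON and WT FSK beta cells Pym1, opposite Dgka, had 30 and 19 counts beside 54 and 25 for Dgka. Usp40, opposite Dgkd, had 224 and 164 beside 733 and 732 for Dgkd. In mutant CON and FSK Pym1 had 15 and 23 counts and Usp40 158 and 140. The part of overlapping genes in the levels of the members was not tested.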

How the data were processed

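The authors barcoded fixed islet nuclei with a combinatorial kit, aligned reads to mm39 with split-pipe, filtered nuclei by counts, genes and mitochondrial share, normalized and integrated the nuclei, named clusters from marker genes, and kept an equal number of nuclei per condition for downstream analyses. The deposited values are natural log values, ln(1 + CP10K), 1 column for each of 6 conditions and 9 cell types, with no column for a single sublibrary or animal. Whole counts were recovered from the steps between values: 100% of values came out whole within 0.001 of a count, and their sum was the column total.

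From these, levels with 95% exact Poisson intervals and ratios with exact conditional binomial intervals were computed, both covering counting error only. A ratio of ratios and a log2 difference combine the intervals of their parts. A difference is in log2(CP10K + 1). A gene was kept in a cell type where its mean deposited value reached the 40th percentile of genes above 0 (10093, 9487 and 9256 genes in beta, alpha and delta cells) and was called at 1.5-fold, a difference of 0.585. No test between conditions was possible. Gene positions and lengths are from GENCODE M39 on GRCm39, the same assembly as mm39, matched by symbol for 16531 of 17362 genes. The functions were tested on simulated data. Computation used scipy 1.17.1, numpy 2.4.6, statsmodels 0.14.6 and pandas 2.3.3 in Python 3.11.15, and figures were drawn with matplotlib 3.10.9.

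The members and lists were chosen with earlier results of these data known. The genes named are the 8 members, Dgkq and Dgkk, genes of 4 pathway lists called in beta cells (at most 4 per list, comparison and direction), and the 5 genes with the highest correlation with Dgkg. Alternatives were another pseudocount, rescaling without mitochondrial and ribosomal RNA linked genes, centring, removal of the length trend, other filters and another threshold.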

Additional observations from a re-analysis of the deposited data

How the results depend on the processing

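No paired analysis was possible because the labels give no replicates of a condition, and leaving out a replicate was not possible for the same reason. With linear values and a pseudocount of 0.1, the Dgkg difference for FSK went from 2.25 to 2.67 in WT beta cells and from 2.30 to 2.81 in the mutant, and the members called over the 5 comparisons numbered 8 in place of 3 (beta), 9 in place of 2 (alpha) and 8 in place of 4 (delta). With the trend on gene length removed, the Dgkg difference was 2.09 for FSK in the mutant, 0.0702 in WT after Ex-4 and 0.0759 between the untreated genotypes, and the members called numbered 2 (beta), 1 (alpha) and 2 (delta). A 2-fold threshold called the same numbers. Rescaling without 14 mitochondrial and ribosomal RNA linked genes, setting the median difference to 0, dropping the filter and raising it to the 75th percentile left the numbers of members called at 3, 2 and 4. Over the 106 further values of single members, recomputed as an addition made after the data were seen, 41 lay outside their counting interval with the other pseudocount, 16 with the length trend removed and none with rescaling or centring, and none that was called changed sign. Over the 6 beta cell columns instead of 18, none of the 5 genes most like Dgkg was shared. The Dgkg values for FSK kept their direction under each alternative run. Depth limits the smaller columns most: a single count is worth 0.00323 to 0.00522 CP10K in beta cells and 0.172 to 2.47 CP10K in neurons.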
